A study of Ovis aries with 36 samples.

Results

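EYA1 and SIM2 are the transcription regulators with roles in embryonic development that are described here across 9 skeletal muscles of the sheep (Ovis aries). They were chosen by name, from genes listed in the published work as most changed between pairs of muscles. Each name was tied to the single assembled locus that covers at least 90% of the gene's listed coordinates. They are 2 of the 31136 loci counted, and both were among the 12461 loci with enough counts to be tested. EYA1 is the locus of ENSOARG00000004513, at chr9:47588481-47960610 of the Oar_v3.1 assembly, a span of 372130 bases. SIM2 is the locus of ENSOARG00000014072, at chr1:267018135-267070595, a span of 52461 bases.

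EYA1 (eyes absent homolog 1) belongs to a family of coactivators that have phosphatase activity and no DNA-binding domain of their own and that reach their target genes through DNA-binding partners. In the embryo EYA proteins act upstream of the myogenic regulatory factors, and in mouse muscle EYA1 takes part in the expression of fast fibre genes. SIM2 (single-minded homolog 2) is a transcription factor of the bHLH-PAS family, which binds DNA together with the partner ARNT and acts mostly as a repressor. It is best known from the nervous system, and it is also expressed in embryonic limb muscle, where it represses MYOD1.

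Total RNA of muscle was sequenced from 4 unrelated male Poll Dorset cross-bred lambs of 14 months, acquired from different flocks. They were raised on pasture and fed alike after weaning, with no treatment and no engineered genotype. Every lamb gave 1 sample of each muscle, so each muscle had 4 biological replicates and the series held 36 samples. The muscles were Semimembranosus (SM), Semitendinosus (ST), Cranial gluteobiceps (GB), Rectus femoris (RF) and Adductor (AD) of the thigh, Gluteus medius (GM) of the hip, Supraspinatus (SS) of the shoulder, and Longissimus lumborum (LL) and Psoas major (PM) of the loin. Samples were taken at the superficial middle of each muscle belly, and they are whole tissue, so fewer cells of a type and less RNA per cell cannot be told apart.

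Depth limits what can be said of both genes. The libraries held between 3699148 and 6427422 counts, of which the 4 most abundant loci took 65.7% to 78.3%, leaving 1009232 to 2151731 counts for all other loci. Levels are given in CPM (counts per 1e+06 counts of a library) after TMM normalization, which corrects for the make-up of each library, and 3 counts correspond to between 0.365 and 1.02 CPM. Several samples of both genes lie at or below that floor. None of the 35 cell type marker genes on the lists used here could be paired with a locus, so fibre content and other cell types could be followed only through 8 slow fibre genes and 1 fast fibre gene.

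EYA1 was highest in SS and RF and lowest in LL and SM. In SS it reached 3.89, 4.93, 3.72 and 5.97 CPM in animals 1 to 4, with a mean of 4.63 ± 1.04 CPM (SD, n = 4). In RF the values were 3.55, 4.22, 4.83 and 5.44 CPM, with a mean of 4.51 ± 0.812 CPM. The lowest of these 8 samples, at 3.55 CPM, was above the highest sample of any other muscle, a GB sample at 3.08 CPM.

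The 5 muscles in the middle of the order spanned mean levels of EYA1 from 1.31 to 2.12 CPM. ST had 1.33, 1.52, 2.64 and 3.01 CPM (mean 2.12 ± 0.824), and GB had 0.531, 3.08, 0.957 and 2.53 CPM (mean 1.78 ± 1.23). GB was the least even muscle, with samples at both ends of the middle range. PM had 1.56, 1.40, 0.825 and 2.28 CPM (mean 1.52 ± 0.601), and AD had no count in animal 1 beside 1.74, 1.82 and 1.77 CPM in animals 2 to 4 (mean 1.33 ± 0.889). GM had 1.14, 1.05, 0.991 and 2.07 CPM (mean 1.31 ± 0.508).

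At the lower end, the 4 SM samples held 0, 7, 2 and 7 counts of EYA1, which gave a mean of 0.658 ± 0.503 CPM. The 4 LL samples held 1, 3, 2 and 3 counts, with a mean of 0.383 ± 0.158 CPM. Over the 4 animals together LL had 9 counts, or 0.385 CPM with an exact 95% Poisson interval of 0.176 to 0.731, against 103 counts in SS, or 4.66 CPM with an interval of 3.80 to 5.65. These intervals cover counting error only.

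**Figure D1:**
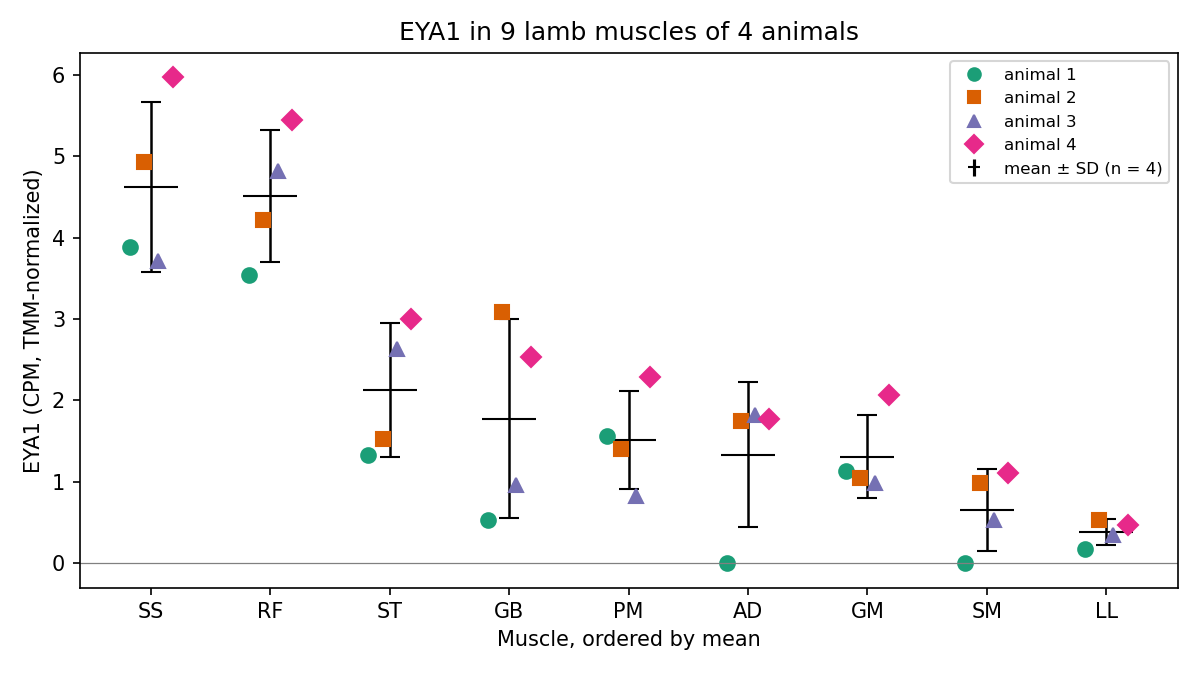
EYA1 level (CPM, TMM-normalized) in each of the 36 samples, by muscle in the order of the means, with the mean and SD over 4 animals as bars and the animal by colour and shape. All SS and RF samples lie at 3.55 CPM or above, and no sample of another muscle passes 3.08 CPM.

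The ends of the order recurred within each animal, while the muscles between them changed places. SS and RF were the highest muscles for EYA1 in all 4 animals, with SS first in animals 1, 2 and 4 and RF first in animal 3. LL and SM were the lowest in animals 2, 3 and 4, and in animal 1 the lowest were SM and AD, both without a count, followed by LL. No step between neighbours in the order of means passed the thresholds used for all comparisons, a false discovery rate (FDR) of at most 0.01 and an absolute log2 fold change (log2FC) above 1. The widest step that was tested, from RF down to ST, had a log2FC of 1.07 with an FDR of 0.129 and no overlap between the groups, and in the 7 other steps the samples overlapped.

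A test of equal EYA1 levels among ST, GB, GM, RF, AD and PM, which leaves out the 3 muscles of the comparisons that had put EYA1 on the study's lists, gave an F of 8.97 and an FDR of 0.000818 by edgeR's quasi-likelihood test. In the same test 3.4% of the 12461 loci passed an FDR of 0.01. EYA1 missed 0.01 without animal 3 (0.0313), without animal 4 (0.0326) and without the animal term (0.0463). As a description that includes the muscles by which the gene was listed, muscle accounted for 69.0% of the variance of EYA1 in log2 CPM and animal for 15.3%, where the medians over all tested loci were 28.7% and 15.4%.

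The thresholds were passed by EYA1 in 9 of the 34 pairwise comparisons counted for it, and in each of the 9 all 4 animals moved the same way. Among all loci tested, 44 (0.353%) were called in at least 9 of these 34, but nothing is read from that share, since 6 of the 9 involve SM, SS or LL, the muscles by which EYA1 was listed. The other 3 are GM vs RF, RF vs AD and RF vs PM. All 3 were lost without the animal term. RF vs AD was also lost with any 1 animal left out, and GM vs RF and RF vs PM without animal 2, 3 or 4. RF was the higher muscle in 5 of the 9 and SS in 3, and the remaining one was ST above LL.

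RF exceeded LL by a fitted log2FC of 3.51 (FDR 1.01e-06), in a comparison where 0.778% of all loci were called. Taken animal by animal in log2 CPM, where a prior count of 2 draws values towards 0, the mean difference was 2.74 (SE 0.125, n = 4). SM was below RF, with a log2FC of -2.62 (FDR 0.000164; 0.859% of loci called) and a mean within-animal difference of -2.44 (SE 0.38). RF was also above AD (log2FC 1.70, FDR 0.00587; 0.233% of loci called) and above PM (log2FC 1.58, FDR 0.00699; 0.49%). The comparison of GM with RF gave a log2FC of -1.82 (FDR 0.00148), where 0.377% of loci were called.

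SS likewise exceeded AD by a log2FC of 1.73 (FDR 0.00191; 0.819% of loci called) and PM by 1.60 (FDR 0.00431; 0.907%). GM was lower than SS with a log2FC of -1.84 (FDR 0.00121; 0.57%). ST exceeded LL by a log2FC of 2.44 (FDR 0.0015; 1.55%), with a mean within-animal difference of 1.72 (SE 0.233). The comparisons of SM and of LL with SS are the ones by which EYA1 was listed, and they are given as values only. The log2FC was -2.64 for SM vs SS and 3.53 for SS vs LL.

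RF and SS could not be separated by EYA1, with a log2FC of -0.02 (FDR 0.995) and a mean within-animal difference of -0.03 (SE 0.126). A further 5 comparisons had an FDR between 0.01 and 0.05, among them ST vs SS at a log2FC of -1.09 and an FDR of 0.0328. The count of 9 rested on having all 4 animals: it was 8 without animal 1, 3 without animal 2, 2 without animal 3 and 1 without animal 4, and in a model without the animal term it was 2. The difference between RF and LL was called in every one of these.

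SIM2 followed another order, with AD and SM highest and ST nearly empty. In AD the values were 6.30, 2.32, 4.37 and 3.05 CPM in animals 1 to 4, with a mean of 4.01 ± 1.74 CPM (SD, n = 4). In SM they were 4.43, 1.70, 3.73 and 3.48 CPM, with a mean of 3.33 ± 1.16 CPM. In ST the 4 libraries held 0, 0, 0 and 1 count, so that the pooled level of 0.0524 CPM has an exact 95% Poisson interval from 0.00133 to 0.292 CPM.

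The level of SIM2 was intermediate in GM and GB. GM had 3.13, 1.94, 1.86 and 0.972 CPM (mean 1.98 ± 0.886), and GB had 2.12, 1.40, 2.68 and 0.843 CPM (mean 1.76 ± 0.806). Both overlapped the lower samples of AD and SM.

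The other 4 muscles were low but not empty. LL held 9, 3, 7 and 3 counts of SIM2 (mean 0.954 ± 0.545 CPM), RF held 7, 2, 4 and 3 (0.720 ± 0.467 CPM), SS held 3, 3, 6 and 2 (0.642 ± 0.310 CPM) and PM held 3, 3, 2 and 6 (0.601 ± 0.203 CPM). All 16 of these samples had at least 2 counts, more than any ST sample.

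**Figure D2:**
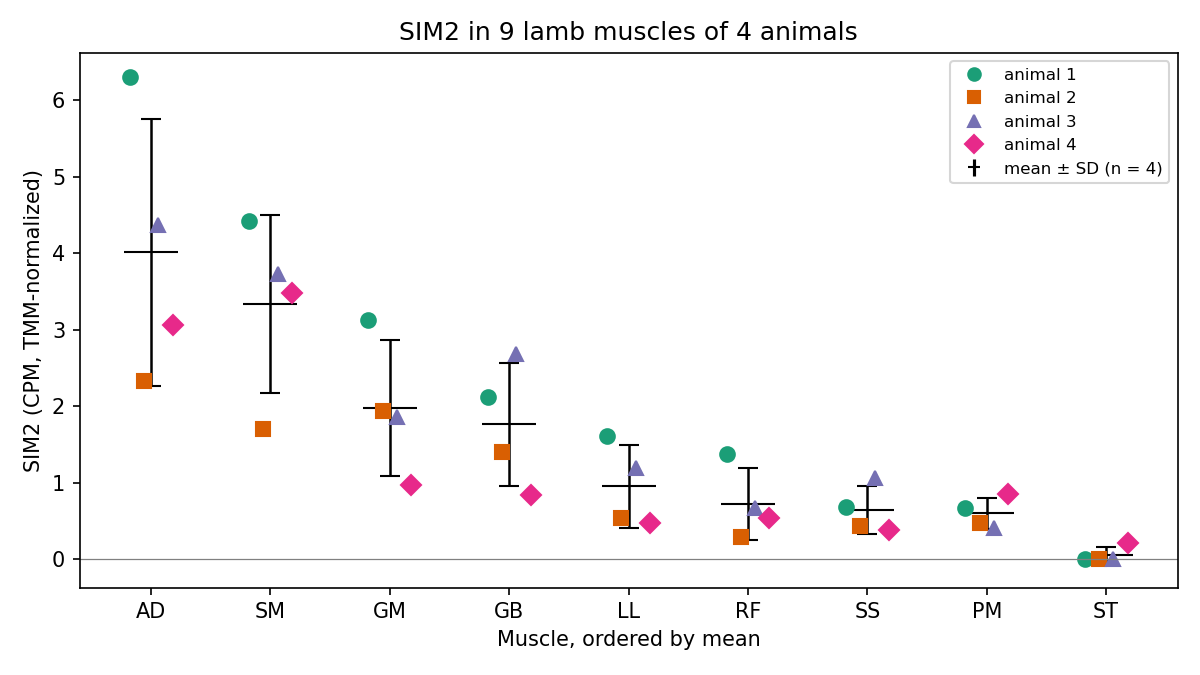
SIM2 level (CPM, TMM-normalized) in each of the 36 samples, by muscle in the order of the means, with the mean and SD over 4 animals as bars and the animal by colour and shape. AD and SM lie highest, from 1.70 to 6.30 CPM, and the 4 ST samples lie at 0 to 0.215 CPM.

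Within animals, AD was the highest muscle for SIM2 in animals 1, 2 and 3 and SM in animal 4, and ST was the lowest in all 4. Neighbours in the order of means overlapped at every step except the last, from PM down to ST, where the log2FC was 3.16 and the FDR 0.0194. Among the 7 muscles outside the SM vs SS comparison that put SIM2 on the study's list, the joint quasi-likelihood test gave an F of 23.0 and an FDR of 3.2e-08, where 4.18% of loci passed an FDR of 0.01. Over all 9 muscles, SM and SS included, muscle accounted for 83.4% of the variance of SIM2 in log2 CPM and animal for 7.58%, which is a description.

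SIM2 was called in 12 of the 35 comparisons counted for it, all with the same direction in 4 of 4 animals, and 31 loci (0.249%) were called in at least as many. Here too 5 of the 12 involve SM or SS, by which SIM2 was listed, and nothing is read from that share. AD was the higher muscle in 5 of them, SM in 4, and ST was the lower muscle in 5.

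AD exceeded RF, as RF vs AD gave a log2FC of -2.47 (FDR 5.99e-05; 0.233% of loci called) and a mean within-animal difference of -2.04 (SE 0.0668). It also exceeded SS (SS vs AD log2FC -2.54, FDR 3.24e-05; 0.819%), PM (AD vs PM log2FC 2.55, FDR 0.000171) and LL (LL vs AD log2FC -2.05, FDR 0.0019). AD vs PM and LL vs AD were comparisons with few differences anywhere: 5 loci (0.0401%) were called in the first and 3 loci (0.0241%) in the second, and SIM2 was among them both times. Neither call held throughout. LL vs AD missed the threshold with any 1 animal left out (FDR 0.0112 to 0.0642) and without the animal term (0.107). AD vs PM missed it without animal 1 (0.022), without animal 3 (0.0338) and without the animal term (0.0139).

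SM exceeded RF by a log2FC of 2.25 (FDR 0.000379; 0.859% of loci called), PM by 2.34 (FDR 0.000174; 1.07%) and LL by 1.83 (FDR 0.00136; 1.03%). The mean within-animal differences were 1.81 (SE 0.147), 1.91 (SE 0.252) and 1.53 (SE 0.231). SM vs RF missed the threshold without animal 3, without animal 4 and without the animal term. SM vs LL missed it in these fits and also without animal 1. The listing comparison, SM vs SS, gave a log2FC of 2.32. AD and SM themselves differed by less than the spread between animals, with a log2FC of -0.22 for SM vs AD (FDR 0.729) and a mean within-animal difference of -0.23 (SE 0.143).

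For ST, fitted fold changes depend on how 0 counts are handled, so ratios of summed counts with their 95% counting intervals are given beside the test. Pooled SIM2 CPM in AD was 70.7 times that in ST (interval 12.3 to 2824), and in SM 58.0 times (10.02 to 2326). The ratio was 33.8 for GM (5.78 to 1364), 31.9 for GB (5.42 to 1290) and 18.0 for LL (2.90 to 741). These 5 comparisons were called, with an FDR of 5.58e-08 for ST vs AD (1.56% of loci called), 1.98e-07 for SM vs ST (0.714%), 8.54e-06 for ST vs GM (2.21%), 3.02e-05 for ST vs GB (0.963%) and 0.00208 for ST vs LL (1.55%).

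The ratio to ST was smaller for RF, SS and PM, at 13.01 (2.02 to 545), 12.1 (1.84 to 511) and 11.7 (1.78 to 496), and with FDRs of 0.0433, 0.0139 and 0.0194 these 3 missed the threshold. Leaving out an animal left between 7 and 10 of the 12 calls, with the lowest count without animal 3, and 7 were called in a model without the animal term. DESeq2 called 6 of the 12, gave no adjusted p-value for 5 and lost 1, ST vs LL. That comparison was also lost without animal 1, without animal 2, without animal 3 and without the animal term.

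**Figure D3:**
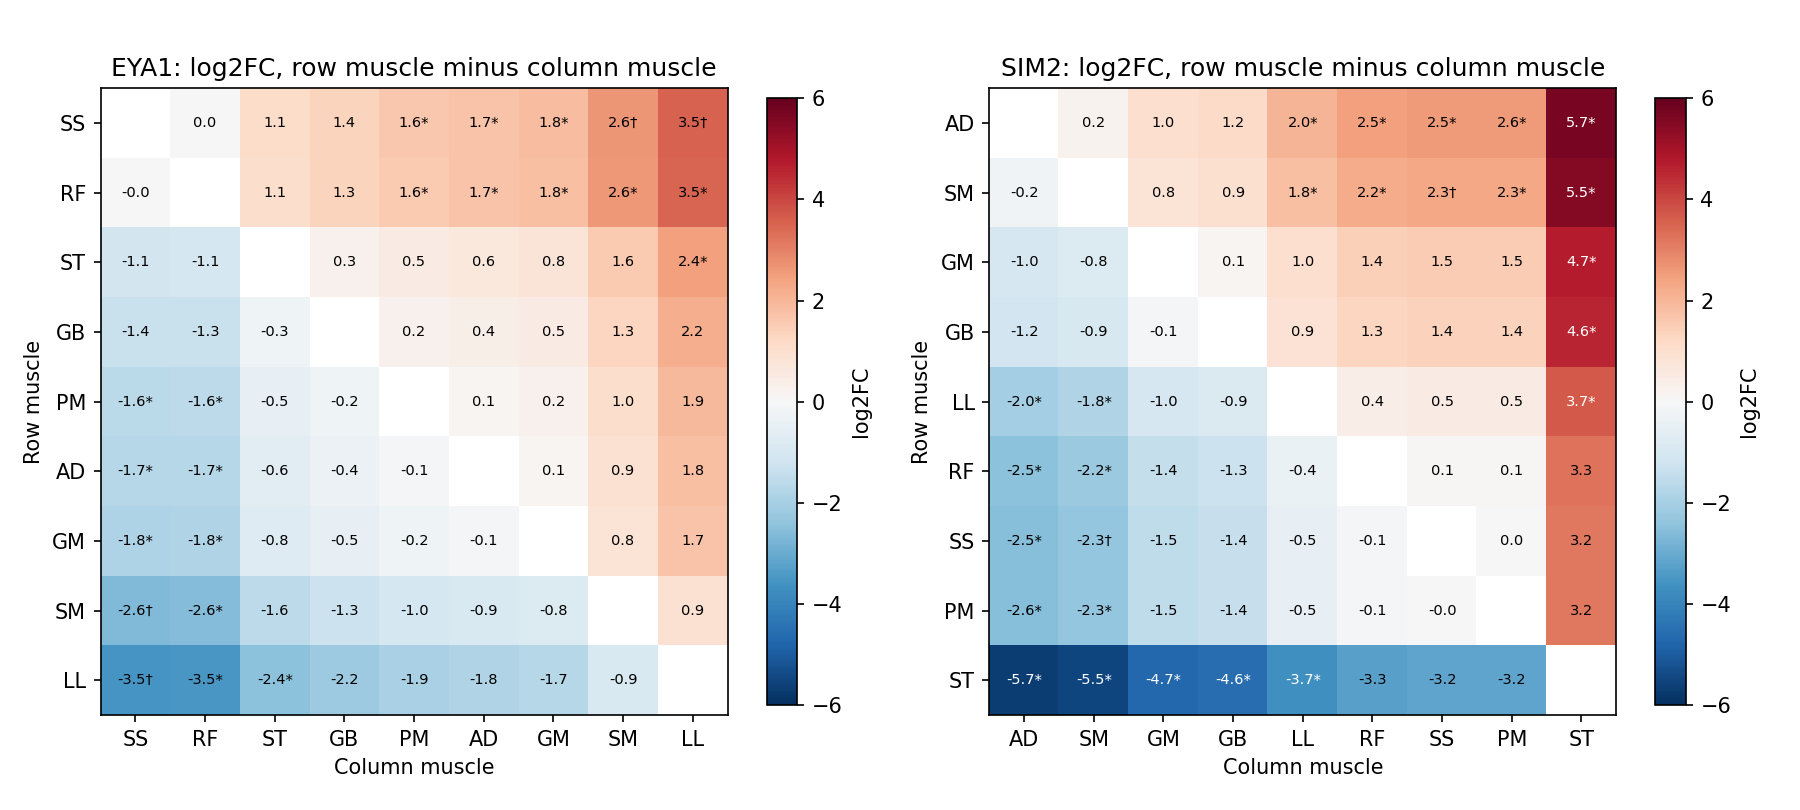
Log2FC of EYA1 (left) and SIM2 (right) for each pair of muscles, as the row muscle minus the column muscle, with muscles in the order of each gene's mean level. An asterisk marks an FDR of at most 0.01 with an absolute log2FC above 1, and a dagger marks the comparisons by which a gene was listed, which were not counted. The calls of EYA1 sit in the rows of SS and RF and in ST against LL, and those of SIM2 in the rows of AD and SM and the column of ST.

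Both genes were called in the same comparison 4 times, in SM vs RF, ST vs LL, RF vs AD and SS vs AD, and each time in opposite directions. In SM vs RF, EYA1 had a log2FC of -2.62 and SIM2 of 2.25, and in ST vs LL EYA1 had 2.44 and SIM2 -3.67. These comparisons share muscles. Over the 36 samples, with each animal's mean removed from log2 CPM, Pearson's r between the genes was -0.45, a description only, since samples share animals, libraries and depth. The level of one gene is not compared with that of the other, because their transcript lengths were not available here.

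An unannotated locus lies next to SIM2 and had nearly the same distribution over muscles. It spans chr1:266994223-267001200, ends 16934 bases from SIM2 on the side of lower coordinates, and carries no Ensembl gene. The files give no strand, so it is not known whether it lies before or after SIM2 in the direction of transcription. Of the 12460 other loci tested, it was the most like SIM2, with an r of 0.891 over 36 samples, and it was also first by the 9 muscle means (r = 0.963) and by Spearman's rho over samples (0.862).

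This neighbour was highest in AD, with 5.51, 6.24, 8.92 and 5.47 CPM in animals 1 to 4 (mean 6.54 ± 1.63), and next in SM, with 5.45, 2.55, 5.07 and 5.37 CPM (mean 4.61 ± 1.38). GB and GM followed with means of 3.47 ± 1.87 and 3.44 ± 1.79 CPM, then LL with 2.30 ± 1.12, PM with 1.37 ± 0.438, SS with 0.744 ± 0.279 and RF with 0.606 ± 0.293 CPM. In ST it had no count in any of the 4 libraries. Against a floor of 3 counts over the ST group, it was at least 41.7-fold higher in AD, at least 27.6-fold higher in SM and at least 3.79-fold higher in RF.

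The unannotated locus was called in 10 of the 12 comparisons called for SIM2 (83.3%), all with the sign of SIM2, and these were 66.7% of its own calls among the 35. The exceptions were SM vs LL and LL vs AD. No other locus among the 12460 was called in as many as 10 of the 12 in the direction of SIM2, so 1 locus, or 0.00803%, met that description. It was called in 16 of all 36 comparisons, and 9 loci (0.0722%), itself included, were called in at least as many. Its count fell to 9 without animal 1, 3 or 4 and to 10 without the animal term.

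Between it and SIM2 lie 3 shorter unannotated loci with too few counts to be tested. Their summed counts over 4 animals were 57 in AD, 62 in GB, 38 in GM and 37 in SM, against 20 in LL, 18 in PM, 16 in SS, 13 in RF and 1 in ST. Again ST was nearly empty. The annotated neighbour on the other side, ENSOARG00000014127, begins 3844 bases after SIM2 and was called in 0 comparisons, with means from 4.83 CPM in SM to 6.76 CPM in RF. Whether the unannotated loci are parts of the SIM2 transcript, which Cufflinks would then have assembled separately, was not tested.

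**Figure D4:**
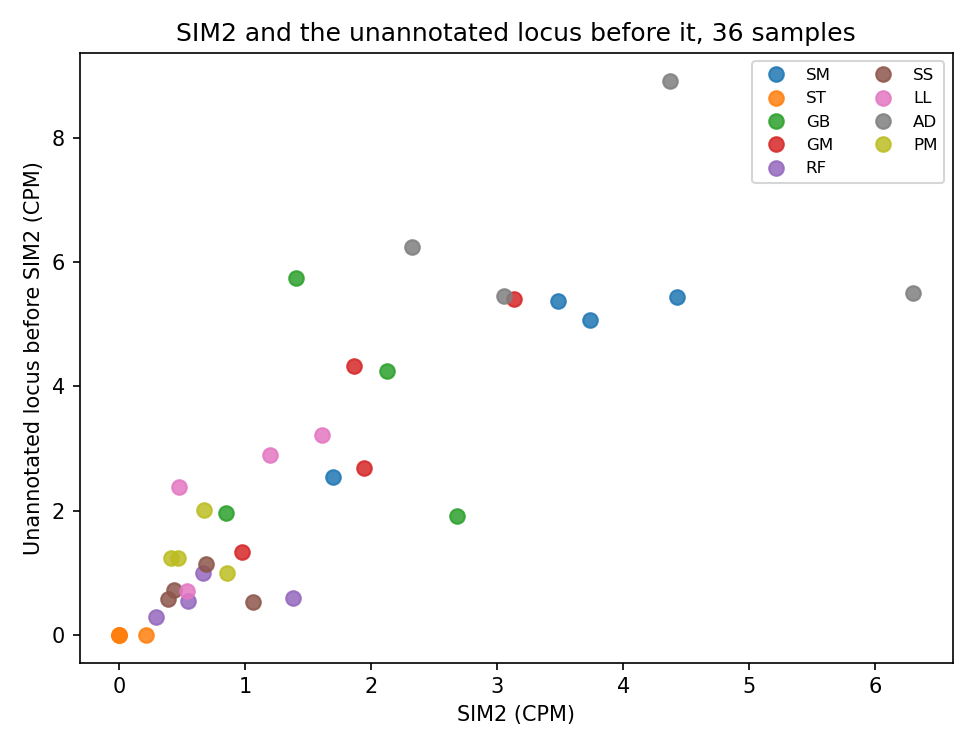
SIM2 level (horizontal axis) and the level of the unannotated locus next to it on chromosome 1 (vertical axis), both in CPM, 1 point per sample and 1 colour per muscle. The AD samples lie at 2.32 CPM or more for SIM2 and 5.47 CPM or more for the neighbour, and the 4 ST samples lie at 0 CPM for the neighbour on the vertical axis.

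No such neighbour was seen for EYA1. No counted locus overlapped EYA1, and the nearest one lay 81172 bases away and held no count. The nearest tested loci, ENSOARG00000004110 and ENSOARG00000003944, at distances of 415624 and 470073 bases, were called in 0 of 36 comparisons each. Both lie on the side of lower coordinates. On the other side the nearest loci held at most 71 counts over all samples and were not tested, so that side was not examined.

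Among fast fibre genes, parvalbumin (PVALB), a calcium-binding protein of fast fibres, was the one of 14 listed genes that could be paired with a tested locus, and it was called in all 9 comparisons called for EYA1, each time in the direction of EYA1. It was the only other locus of 12460 of which this was true (0.00803%). PVALB is itself on the study's list for SM vs SS, and it was paired here only because it is listed, so it is no independent sample of the fast fibre genes. All 18 of its calls over the 36 comparisons set ST, RF or SS, the 3 muscles with the highest means of EYA1, against one of the other muscles.

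The counts of PVALB in animals 1 to 4 were 74, 56, 19 and 18 in RF, 29, 32, 37 and 9 in ST, and 76, 15, 7 and 9 in SS. No sample of the other 6 muscles held more than 6 counts, and AD held none. The match was one of muscles and not of animals: in SS and RF animal 1 had the highest level of PVALB (17.4 and 14.6 CPM) and animal 4, with 1.73 and 3.27 CPM, had the highest of EYA1. The r of PVALB with EYA1 over 36 samples centred on animals was 0.746, and 11 loci had a higher one.

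In contrast, HOXD8, a homeobox gene of positional identity, was low where EYA1 was high. It had 0.603 ± 0.627 CPM in SS, from 1, 2, 2 and 8 counts, and 1.42 ± 1.07 CPM in RF, from 4, 8, 18 and 4 counts. In the other 7 muscles its means ran from 7.39 CPM in GB to 14.0 CPM in LL, and no sample fell below 3.51 CPM. It was called in 8 of the 9 comparisons of EYA1 with the opposite sign, all but ST vs LL, and 6 loci (0.0482%) were opposite to EYA1 in at least 8. The study had listed HOXD8 for comparisons with SS, so its low level there was known when it was placed on a list here, which is not the case for RF.

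HOXC10, the other homeobox gene that could be paired, separated SS from RF where EYA1 did not. It had no count in any SS library and 23, 23, 9 and 19 counts in RF, with means between 2.09 and 3.50 CPM in the 8 muscles outside SS. The study had listed HOXC10, too, for comparisons with SS, so its low level there was known when it was placed on a list here.

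EYA1 and the slow fibre genes that could be paired were ordered differently over the muscles. Of 11 listed slow fibre genes, 8 were paired with tested loci (MYL3, TNNT1, TNNC1, TNNI1, ATP2A2, CASQ2, MYOZ2 and TPM3, which encode the slow isoforms of contractile proteins, calcium pumps and stores, and a Z-disc protein), all taken from the study's lists and so chosen for differences between these muscles. The study lists all 8 as higher in SS than in ST, so their high level in SS and low level in ST were known beforehand. Their mean log2 CPM relative to the mean of each animal was highest in PM (1.32 ± 0.154), SS (1.08 ± 0.172) and GB (0.713 ± 0.121) and lowest in LL (-0.62 ± 0.601) and ST (-2.29 ± 0.282), with RF at -0.43 ± 0.450. RF and SS, which EYA1 did not separate, differed in 4 of the 8 slow genes, all higher in SS, with a median log2FC of -1.46 for RF vs SS, where 0.177% of all loci were called. RF and LL differed in EYA1 and in 0 of the 8, with a median log2FC of 0.22, where the median over all loci was 0.00.

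In the 9 comparisons called for EYA1, the slow genes called numbered 0 of 8 in RF vs LL, 1 of 8 in SM vs RF, GM vs RF, RF vs AD and SS vs PM, 2 of 8 in GM vs SS and SS vs AD, 6 of 8 in RF vs PM and 7 of 8 in ST vs LL. Where slow genes were called in these 9, they moved opposite to EYA1, except in GM vs SS and SS vs AD, where they were higher in SS like EYA1. The 2 comparisons by which EYA1 was listed are not among the 9. In them, 6 of 8 slow genes were called in SM vs SS and 7 of 8 in SS vs LL, all higher in SS like EYA1. For SIM2, the 5 called comparisons with ST had 6, 7, 8, 8 and 8 slow genes called, all lower in ST like SIM2 itself. Nothing is read from this match, since the 8 slow genes were listed for being lower in ST than in SS. SM vs PM had 6, in the direction opposite to SIM2, and the other 6 had 0 to 2. The r with the mean of the 8 slow genes over 36 samples was 0.09 for EYA1 and 0.41 for SIM2.

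**Figure D5:**
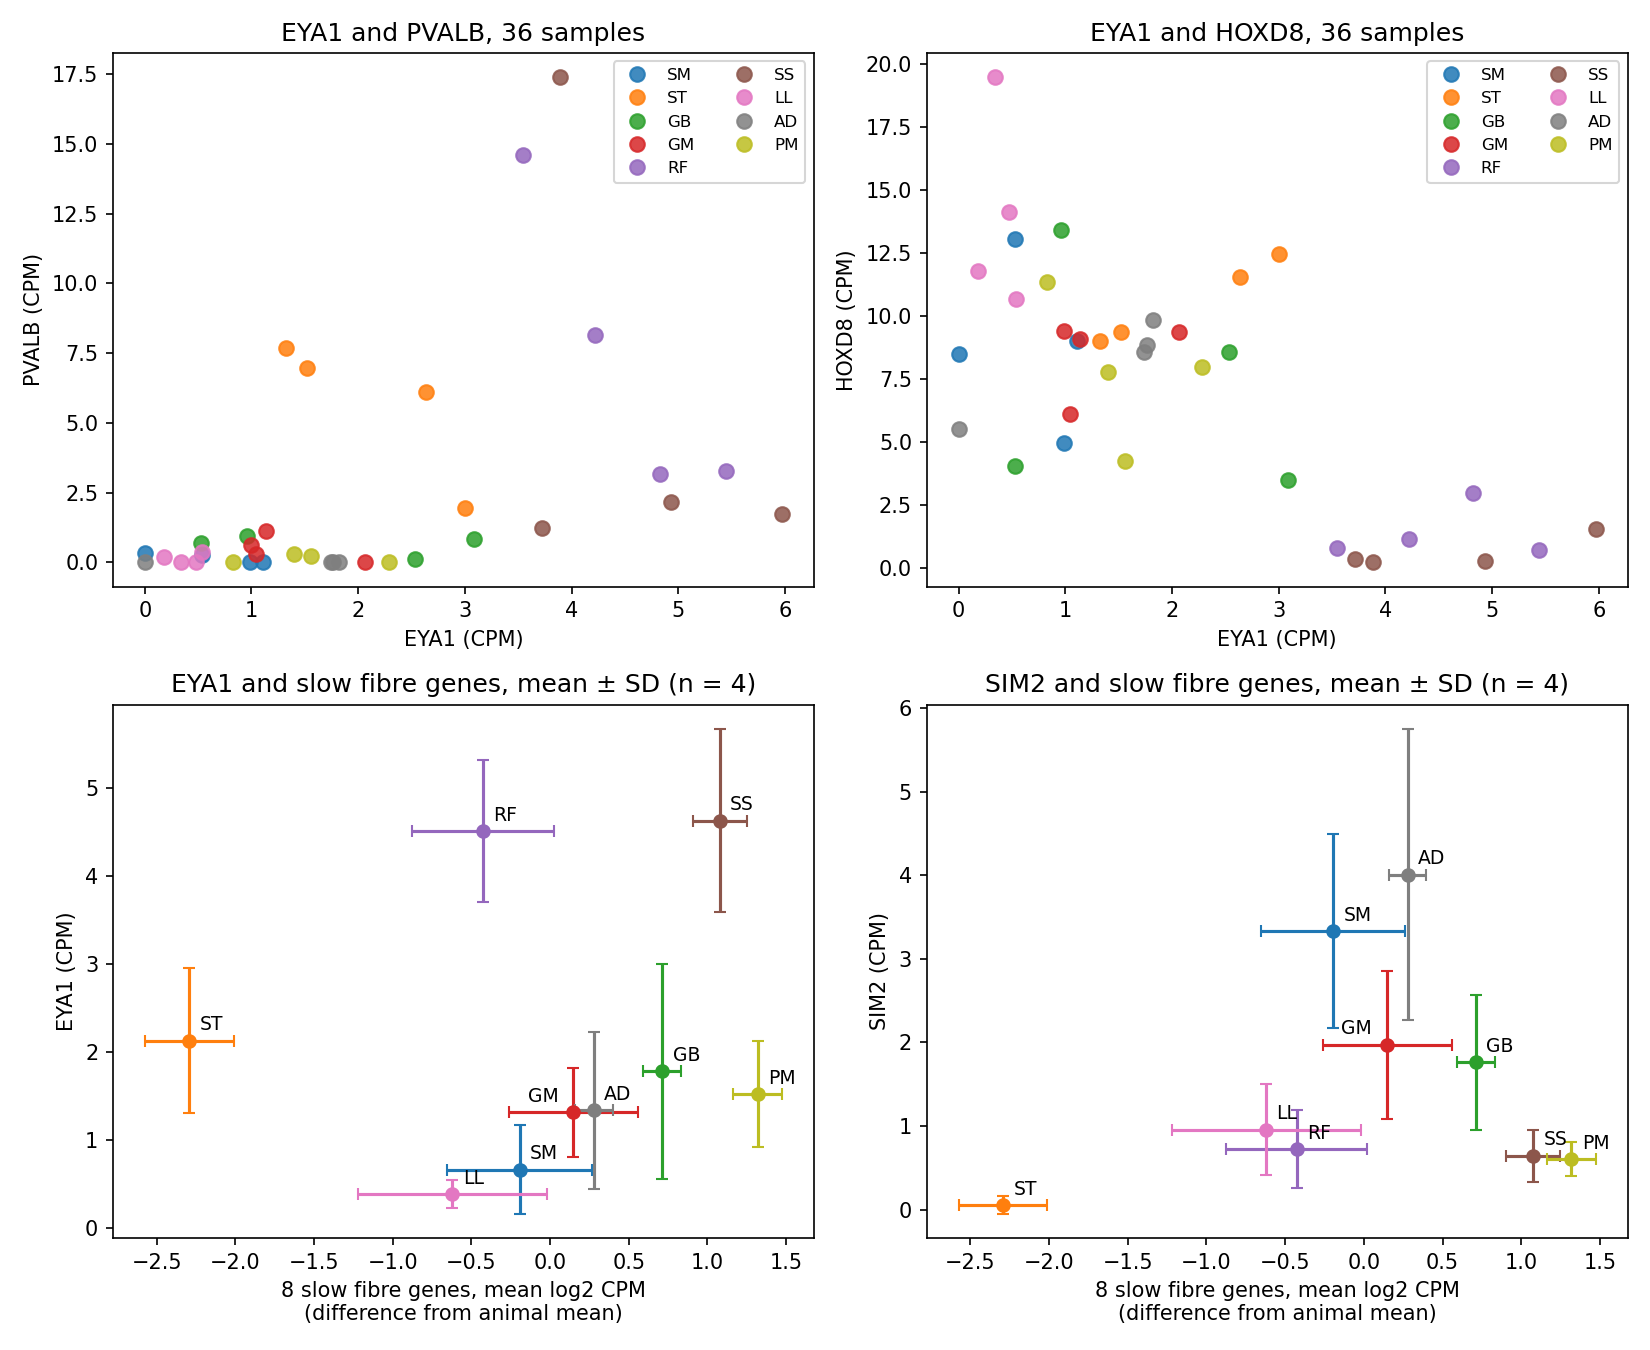
Upper row, level of EYA1 against PVALB (left) and HOXD8 (right) in CPM, 1 point per sample; lower row, mean level of EYA1 (left) and SIM2 (right) in CPM against the mean log2 CPM of 8 slow fibre genes relative to each animal's mean, with SDs over 4 animals. SS and RF lie apart at high EYA1 and low HOXD8, at slow gene levels of 1.08 and -0.43, while ST is lowest for the slow genes and for SIM2.

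Of the remaining lists, EYA1 was the one of 12 genes of its regulatory network, and SIM2 the one of 12 bHLH-PAS factors, that could be paired with a locus. None of 11 myogenic factors could be. ARNT and the other partners are not analysed here.

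The tested loci whose levels were most like those of EYA1 over 36 samples were ENSOARG00000020376, at chr1:95558815-95685096, with an r of 0.872, and ENSOARG00000015112, at chr3:170450235-170553298, with an r of 0.816. Within the second lies an unannotated unit that the study assigned to MYBPC1 and listed for SM vs SS. The study describes MYBPC1 as a slow muscle type of myosin-binding protein C, and it is not on the slow fibre list used here. KCNMA1, which encodes a calcium-activated potassium channel, had an r of 0.771, with 4 loci above it. It could be named only because the study lists it, for SM vs SS and LL vs SS, the comparisons that also list EYA1. The most opposite was a locus that joins ENSOARG00000016466 and ENSOARG00000023961, at chr3:132874525-132902284, with an r of -0.81. For SIM2, after its unannotated neighbour, the next were ENSOARG00000000890 on chromosome X (r = 0.753) and ENSOARG00000006962 on chromosome 5 (r = 0.751), and the most opposite were ENSOARG00000017994 (r = -0.77) and ENSOARG00000010742 (r = -0.72). These correlations are descriptions without a test, over samples that share animals and depth.

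Animals differed in SIM2, and for EYA1 the difference between them missed the threshold. Over the 9 muscles, mean EYA1 was 1.35, 2.16, 1.85 and 2.74 CPM in animals 1 to 4, and mean SIM2 was 2.26, 1.01, 1.78 and 1.203 CPM. Animal 1 was lowest for EYA1 and highest for SIM2. The test among animals gave an F of 8.28 and an FDR of 0.00227 for SIM2, and an F of 5.80 and an FDR of 0.0131 for EYA1, which misses 0.01, where 17% of all loci passed. The FDR of SIM2 rose to 0.079 without animal 1 and to 0.0243 without animal 2. Libraries were sequenced in 4 lanes of 9, and which libraries shared a lane is not given in the sources used here. The lambs also came from different flocks, so differences between animals and between flocks cannot be told apart.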

How the data were processed

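Per the study's methods and the submitters' processing notes, the authors aligned paired reads to Oar_v3.1 with TopHat2 (2.0.13), assembled transcripts with Cufflinks (2.2.1) merged with Ensembl genes, and counted reads per locus with HTSeq. The deposited values are raw counts per locus. No strand setting is given in the sources used here. Of 31530 entries 394 were repeats, leaving 31136 loci, 24763 with an Ensembl gene.

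Here, edgeR 4.0.16 (R 4.3.3) was used: filterByExpr by muscle, TMM, and the quasi-likelihood test with muscle and animal as terms over all 36 samples, with Benjamini-Hochberg adjustment over 12461 loci within each comparison. A difference was called where the FDR did not exceed 0.01 and the log2FC was above 1 in size. SEs are of 4 within-animal differences in log2 CPM (prior count 2). Pearson correlations over the 36 samples used log2 CPM centred on each animal's mean, and Spearman's rho used log2 CPM that was not centred. The animal is the block because every lamb gave each muscle. Samples of the same animal correlated at a mean r of 0.236 in their deviations from the muscle means (144 pairs), and samples of different animals and muscles at -0.08 (432 pairs).

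Symbols came from the coordinates in the study's tables, which paired 27 of 38 symbols with 1 locus. The genes named are EYA1 and SIM2, the members of fixed gene lists that could be paired, neighbouring loci and the loci most and least like each gene. EYA1, SIM2 and all lists were chosen with earlier results of these data known. Alternatives were the likelihood ratio test, DESeq2 1.42.0, other size factors, no filter, no animal term, each animal left out, fits of 8 samples and other adjustments. The test script was tested on simulated data. The authors' own fold changes were not used, and protein and nucleotide sequences of these loci were not analysed here.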

Additional observations from a re-analysis of the deposited data

Results flagged for a closer look

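Of 27 groups of 4 samples (EYA1, SIM2 and the unannotated locus next to SIM2 in 9 muscles), 4 held a sample farther from the others than Dixon's 95% critical value allows, and chance flags about 1 group in 20. The unannotated locus in ST had no count in any sample and could not be tested. EYA1 in AD was at 0 CPM in animal 1, while the other 3 animals lay between 1.74 and 1.82 CPM. That library was the shallowest, with 3699148 counts, and SIM2 had 24 counts in it. EYA1 in GM was at 2.07 CPM in animal 4, above 0.991 to 1.14 CPM in the others. SIM2 in ST was at 0.215 CPM in animal 4, which is 1 count against 0 in the other 3. Such a pattern is always flagged, so the chance rate does not apply to it. The unannotated locus in SM was at 2.55 CPM in animal 2, below 5.07 to 5.45 CPM in the others, and SIM2 was also lowest in that library among the SM samples.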

How the results depend on the processing

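In no alternative did a called difference change direction. EYA1 kept 74 and SIM2 113 of their 106 and 136 recomputed values past the thresholds. EYA1 RF vs LL was called in every alternative, as were SIM2 SM vs ST, SM vs PM, ST vs GB, ST vs GM, ST vs AD, RF vs AD and SS vs AD wherever a value could be had. With no replicate block (no animal term), the called comparisons fell from 9 to 2 for EYA1, from 12 to 7 for SIM2 and from 16 to 10 for the unannotated locus, and the joint FDR of EYA1 among muscles rose to 0.0463. With only the 8 samples of the muscles compared, 5 and 6 comparisons were called for EYA1 and SIM2, which the count filter removed in 16 and 19 comparisons. DESeq2 called 6 comparisons for SIM2, and an FDR of 0.05 gave 14 for EYA1. Leaving out each animal in turn gave 1 to 8 calls for EYA1 and 7 to 10 for SIM2, and 9 for the unannotated locus without animal 1, 3 or 4. It also gave joint FDRs of 0.00145 to 0.0326 for EYA1 among muscles (0.0313 without animal 3, 0.0326 without animal 4), 0.00867 to 0.164 for EYA1 among animals and 0.0038 to 0.079 for SIM2 among animals. The FDR of EYA1 among animals was 0.00127 by the likelihood ratio test, 0.00634 by DESeq2 and 0.00356 with no filter. The causes were not tested. Of the 5 loci most like each gene, 1 stayed among the first 5 by muscle means for both, and by Spearman's rho 3 stayed for EYA1 and 2 for SIM2. A filter of 10 counts in every sample could not be run, since neither gene passes it. Depth limits both genes, whose levels in LL, SM or ST rest on a few counts.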
